A study of Mus musculus with 10 samples.

Results

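Natriuretic peptides are hormones of the heart muscle that act through cyclic GMP. The genes described here are the 8 that encode the peptides, their receptors and the proteases that trim their precursors. They are *Nppa*, *Nppb*, *Nppc*, *Npr1*, *Npr2*, *Npr3*, *Corin* and *Furin*, chosen by symbol among 23195 genes in a table of RNA-seq values from mouse hearts. The table compares hearts of 5 wild-type and 5 *Nos1ap* null male embryos at embryonic day 13.5, all labelled strain C57BL6/J. The null embryos carry the tm1d allele on both chromosomes, a constitutive deletion of a critical exon, made with CMV-Cre and ACTB-Flpe mice and free of the *lacZ* and *neo* cassettes. The deletion is in every cell of the embryo, not in the heart alone, and the controls are labelled wildtype. The labels do not say which embryos shared a litter, so that p-values measure the spread between these hearts only. *Nos1ap* encodes an adaptor protein of neuronal nitric oxide synthase, and nitric oxide raises cyclic GMP through another cyclase than the peptide receptors do.

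*Nppa* encodes atrial natriuretic peptide (ANP), *Nppb* encodes B-type natriuretic peptide (BNP) and *Nppc* encodes C-type natriuretic peptide (CNP), which is largely made outside the heart muscle. *Npr1* encodes the receptor guanylyl cyclase for ANP and BNP, *Npr2* the receptor guanylyl cyclase for CNP, and *Npr3* the clearance receptor, which binds all of the peptides and has no cyclase domain. Corin is a membrane-bound serine protease that cleaves the ANP precursor, and furin is a convertase of the secretory pathway that cleaves the BNP and CNP precursors among many substrates. In the embryo *Nppa* is a classical marker of the chamber myocardium, being made in the atria and in the trabeculae of the ventricles.

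*Nppb* and *Nppa* are neighbours on chromosome 4, *Nppb* at 147985788 to 147987205 and *Nppa* at 148000722 to 148002079, both on the plus strand of GRCm38. The 13516 bases between them hold 0 other protein-coding genes. *Nppc* lies alone on chromosome 1 at 86666291 to 86670571, on the minus strand. The 250 bases before the start of each gene are given below from RefSeq (GRCm38.p6), since the regulators of these promoters are measured further on. The windows are chr4:148000472-148000721 (plus strand) for *Nppa*, chr4:147985650-147985899 (plus strand) for *Nppb* and chr1:86670574-86670823 (minus strand) for *Nppc*. Capitals mark every match, on either strand, to 6 motifs. They are the TATA box, spelled TATAAA, the GATA motif, which GATA factors bind and which was searched as TGATAA, its variant spelled AGATAA, the NKX motif of factors such as NKX2-5, spelled AAGTG, the T-box motif, spelled TCACACCT, and the TEAD motif, spelled GGAATG.
Nppa: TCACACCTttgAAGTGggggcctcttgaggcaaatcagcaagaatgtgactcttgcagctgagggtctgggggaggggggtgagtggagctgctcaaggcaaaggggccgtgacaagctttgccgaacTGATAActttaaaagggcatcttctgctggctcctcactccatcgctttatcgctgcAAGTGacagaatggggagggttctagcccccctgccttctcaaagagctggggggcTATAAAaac
Nppb: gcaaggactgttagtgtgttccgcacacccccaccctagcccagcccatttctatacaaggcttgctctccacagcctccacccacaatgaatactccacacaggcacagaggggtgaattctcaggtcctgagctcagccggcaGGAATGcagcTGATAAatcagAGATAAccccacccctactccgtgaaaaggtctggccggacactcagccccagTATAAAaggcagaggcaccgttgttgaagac
Nppc: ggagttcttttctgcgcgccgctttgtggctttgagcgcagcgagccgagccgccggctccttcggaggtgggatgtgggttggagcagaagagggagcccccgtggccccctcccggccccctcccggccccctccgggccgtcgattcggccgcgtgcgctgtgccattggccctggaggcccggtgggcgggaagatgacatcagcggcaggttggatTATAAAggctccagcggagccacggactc
The letters of the TATA box stood in all 3 windows, against 12.4% of the 32851 promoter windows of this length in the mouse. The match began 31 bases before the start of *Nppb* and 29 before that of *Nppc*, but only 9 before that of *Nppa*. *Nppa* held 2 matches to the NKX motif (in 40.7% of all windows), 1 to the GATA motif (7.94%) and 1 to the T-box motif (1.12%). *Nppb* held 1 match each to the GATA motif, to its variant (9.99%) and to the TEAD motif (12.6%), all within 105 bases of its start. The *Nppc* window held no other match than the TATA box, and 69.2% of its bases were G or C, against 54.4% in *Nppa* and 54.8% in *Nppb*. No match overlapped another. A match describes letters and does not show that a factor was bound in these hearts, and the annotated start of *Nppb* in GENCODE lies 112 bases away from that in RefSeq.

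The values are normalized read counts, that is, read pairs assigned to a gene divided by a size factor that corrects for the depth of its library. The table holds the mean of each group, from which whole counts of single libraries were recovered where the digits of the mean allowed 1 set of counts only. This succeeded for *Nppc*, *Npr1*, *Npr2* and *Corin*. For *Nppa*, *Nppb*, *Npr3* and *Furin* only the group means could be used, so that these 4 genes have no test here. Libraries are numbered by their size factor within a group, largest first, an order that is unrelated to the replicates named in the labels.

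By genotype, *Nos1ap* itself measured 144 ± 14.4 normalized counts in wild-type hearts and 39.8 ± 5.20 in null hearts (SD, n = 5). Every null library lay below every wild-type library, and the log2 difference was −1.83 (SE 0.120, adjusted p = 7.34e-09, limma). The libraries held an estimated 11328233 to 14023004 read pairs in genes. Cardiomyocyte markers (*Tnnt2*, *Myh6*, *Ttn* and others) summed to 275914 counts in wild-type hearts, whereas the liver gene *Alb* stood at 8.68 in wild-type and 3.55 in null hearts. Erythroid markers, mostly globins, were higher in the null mean for 7 of 8 genes, with a median log2 difference of 0.39, and the single-library sum over the 2 of these genes with known counts was highest in null library 2 (349, against 50.4 to 172 in the other null libraries and 63.1 to 246 in wild-type hearts). Neuronal and glial markers were lower in the null mean for 6 of 6 genes, and their sum over 4 genes stood at 733 in wild-type library 3 against 146 to 203 in the other 9 libraries. The same library stood apart by skeletal muscle markers (136 over 4 genes, against 6.19 to 17.2 in the other 9 libraries) and by *Myh11*, the smooth muscle gene with known counts (206, against 28.3 to 69.1). None of the erythroid, neuronal and muscle genes tested passed the thresholds given below, and their part in the values of the peptide system was not tested beyond leaving out each library in turn.

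**Figure D1:**
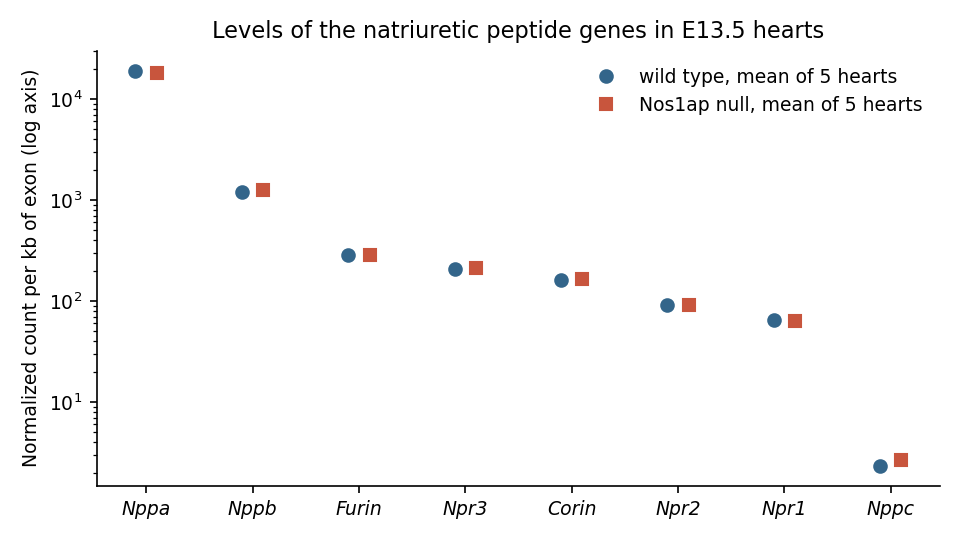
Mean normalized count per kilobase of exon (log axis) of each of the 8 genes, in order of the wild-type level, for 5 wild-type hearts (circles) and 5 *Nos1ap* null hearts (squares). The levels run from 19122 for *Nppa* down to 2.33 for *Nppc* in wild-type hearts, and the 2 genotypes lie side by side for every gene.

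Levels of different genes are compared per kilobase of exon. In wild-type hearts *Nppa* stood at 19122 normalized counts per kilobase, *Nppb* at 1187, *Furin* at 285, *Npr3* at 206, *Corin* at 161, *Npr2* at 91.0, *Npr1* at 65.3 and *Nppc* at 2.33. *Nppa* was thus 16.1 times as abundant as *Nppb* per length, and ranked 46 among 16973 protein-coding genes by its count. The null hearts gave the same order of all 8 genes, from 18278 for *Nppa* to 2.64 for *Nppc*, and so did lengths taken from the longest transcript. Over the 10 single libraries *Corin* ranged from 143 to 178 per kilobase, *Npr2* from 78.9 to 102, *Npr1* from 50.5 to 70.2 and *Nppc* from 0 to 5.96, so that these 4 neighbours in the order did not overlap. For the other neighbours, such as *Furin* with *Npr3* and *Npr3* with *Corin*, the spread over hearts is not known and the order was not tested.

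Among the ligands, *Nppa* had a mean of 16541 normalized counts in wild-type hearts and 15810 in null hearts, or 4.42% less in the null mean (log2 ratio −0.07). *Nppb* had a mean of 927 in wild-type hearts and 983 in null hearts, or 6.07% more in the null mean (log2 ratio 0.09). The neighbouring genes thus differed from wild type in opposite directions, and both by little. Of 13299 protein-coding genes with a mean of at least 10, a log2 ratio at least as large in either direction was found for 38.7% in the case of *Nppa* and for 28.9% in the case of *Nppb*. The median absolute log2 ratio of these genes was 0.05, 24% of them exceeded 0.1, and 0.759% exceeded 1. None of the 7 members in this range, all but *Nppc*, exceeded 0.1. Neither difference could be tested here. The authors' counting used strand, and an antisense transcript that overlaps *Nppa* by 989 bases (*Gm13054*) had means of 39.4 and 33.9.

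*Nppb* stood out by its spread between hearts of the same genotype. Although its single-library counts were not settled, every set of 5 whole counts that gives its mean has a coefficient of variation (CV, the SD divided by the mean) of at least 16.9% in wild-type hearts. In null hearts the smallest CV that any set allows was 15.7%. Counting error alone would give a CV of 3.28% and 3.19% at these means. Among protein-coding genes with a mean within 25% of that of *Nppb*, the median of the same smallest CV was 4.98% over 1659 genes in wild-type hearts and 4.68% over 1591 genes in null hearts. Only 10 (0.603%) and 14 (0.880%) of these genes, respectively, had a smallest CV as wide as that of *Nppb*. *Igfbp3*, which encodes an insulin-like growth factor binding protein, *Robo1*, a receptor for slit proteins, and *Lum*, which encodes the matrix proteoglycan lumican, were the 3 genes as wide as *Nppb* in both genotypes, and are named after their values were seen. These are lower bounds and give no heart's own level of *Nppb*. At means over 1000, which both windows reach, the digits limit the spread less, so that more genes may truly be as wide as *Nppb*. With the smallest possible SD, 156 in wild-type and 154 in null hearts, the standard error of the difference in *Nppb* is at least 98.2 normalized counts, whereas the difference of the means was 56.3. The difference in *Nppb* between genotypes was therefore smaller than its smallest possible standard error. For *Nppa* the mean is too large for its digits to limit the spread.

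**Figure D2:**
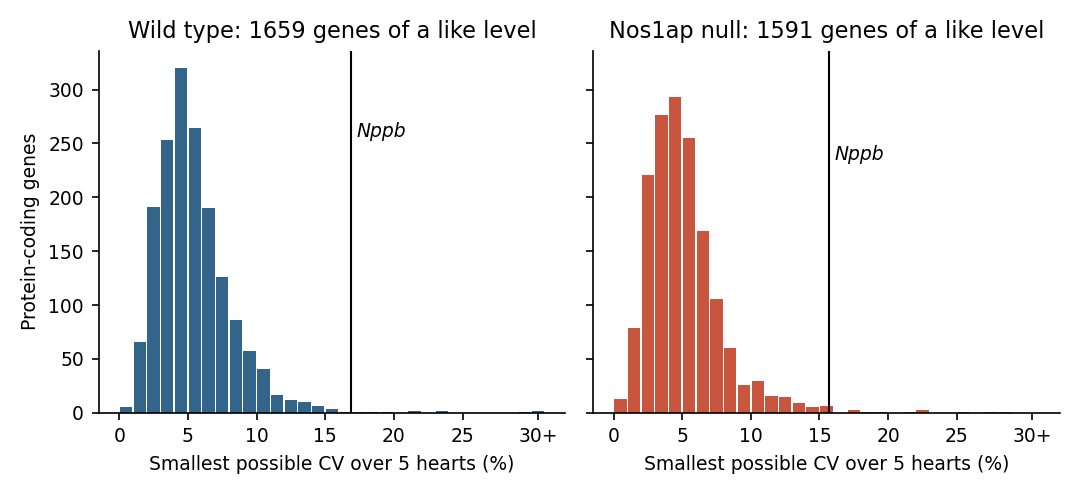
Histograms of the smallest coefficient of variation (x axis, percent) that the group mean allows over 5 hearts, for protein-coding genes with a mean within 25% of that of *Nppb* (y axis, number of genes), in wild-type (left) and *Nos1ap* null hearts (right). The vertical line marks *Nppb*, at 16.9% and 15.7%, to the right of nearly all genes in both genotypes.

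*Nppc* was close to absent. The wild-type libraries held 1, 1, 1, 3 and 6 read pairs of *Nppc*, and the null libraries held 0, 2, 2, 5 and 4. The totals were 12 and 13, the groups overlapped over almost their whole range, and no difference was detectable at this depth (exact two-sided permutation p = 0.786, n = 5 per group, where the smallest p that the arrangements of the libraries allow is 0.00794). The gene lay below the mean of 10 needed for the test across genes. The mean was 2.43 ± 2.31 normalized counts in wild-type and 2.75 ± 2.13 in null hearts (SD), and 12.9% of protein-coding genes had a lower wild-type mean.

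The receptor genes lie apart from each other on GRCm38, *Npr1* on chromosome 3 at 90450591 to 90465866 (minus strand), *Npr2* on chromosome 4 at 43631935 to 43651244 (plus strand) and *Npr3* on chromosome 15 at 11839896 to 11907287 (minus strand). In wild-type hearts the normalized counts of *Npr1* were 328, 336, 306, 284 and 308 in libraries 1 to 5, from 275 to 377 read pairs. In null hearts they were 315, 241, 296, 331 and 332. Null library 2 was the lowest of all 10, with 240 read pairs, and the other 4 null libraries lay within the wild-type range. The means were 312 ± 20.4 and 303 ± 37.5 (SD, n = 5). The log2 difference, null minus wild type, was −0.05 (SE 0.0792, 95% interval −0.22 to 0.11, adjusted p = 0.998, limma), with an exact two-sided permutation p of 0.683. Without null library 2, the library with the highest erythroid sum, the log2 difference of *Npr1* was 0.03. The interval covers ratios of null to wild type from 0.861 to 1.08.

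*Npr2*, whose ligand gene *Nppc* was nearly absent as RNA in these hearts, was measured above *Npr1*. Its normalized counts were 385, 424, 457, 410 and 449 in the wild-type libraries. They were 447, 368, 397, 475 and 448 in the null libraries. Null library 2 was again the lowest of all and null library 4 the highest, so that the null range enclosed the wild-type range. The means were 425 ± 29.5 and 427 ± 43.2 (SD, n = 5), with a log2 difference of 0.00 (SE 0.0683, 95% interval −0.14 to 0.15, adjusted p = 0.998, limma) and an exact two-sided permutation p of 0.937. Its sign is not fixed, being 0.06 without null library 2 and negative in 5 of the 10 fits that leave out 1 library.

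The spread of *Npr1* over the null hearts rested on null library 2, and that of *Npr2* did in part. Their CV over the null hearts was 12.4% for *Npr1* and 10.1% for *Npr2*, wider than that of 93.0% and 91.6% of the protein-coding genes within 25% of their mean whose counts were also recovered. In wild-type hearts the CV was 6.53% for *Npr1* and 6.94% for *Npr2*, wider than 44.7% and 58.9% of such genes, and counting error alone gives 4.8% to 5.8% in these groups. Without null library 2, the CV over the null hearts was 5.24% for *Npr1* and 7.31% for *Npr2*, against medians of 6.85% and 5.93% over 5 hearts for genes of like level. A difference in spread between genotypes was not tested. Per kilobase, *Npr2* exceeded *Npr1* in every library. The ratio was 1.202, 1.29, 1.53, 1.48 and 1.49 in wild-type libraries 1 to 5 and 1.46, 1.56, 1.37, 1.47 and 1.38 in the null libraries. Its means were 1.40 ± 0.143 and 1.45 ± 0.0772 (SD), the ranges overlapped, and the exact two-sided permutation p was 0.524 (n = 5 per group).

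The clearance receptor *Npr3* was the most abundant of the receptors, 3.15 times *Npr1* and 2.26 times *Npr2* per kilobase in wild-type hearts, and 3.32 and 2.30 times in null hearts. Its mean was 1931 normalized counts in wild-type and 1978 in null hearts, 2.46% more in the null mean (log2 ratio 0.04). The difference of 47.5 was smaller than the smallest standard error that the digits of its means allow, 63.9. The smallest possible CV of *Npr3* was 5.37% in wild-type and 4.96% in null hearts, a bound reached or exceeded by 33.3% and 34.1% of genes of like level, against 0.603% and 0.880% for *Nppb*.

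**Figure D3:**
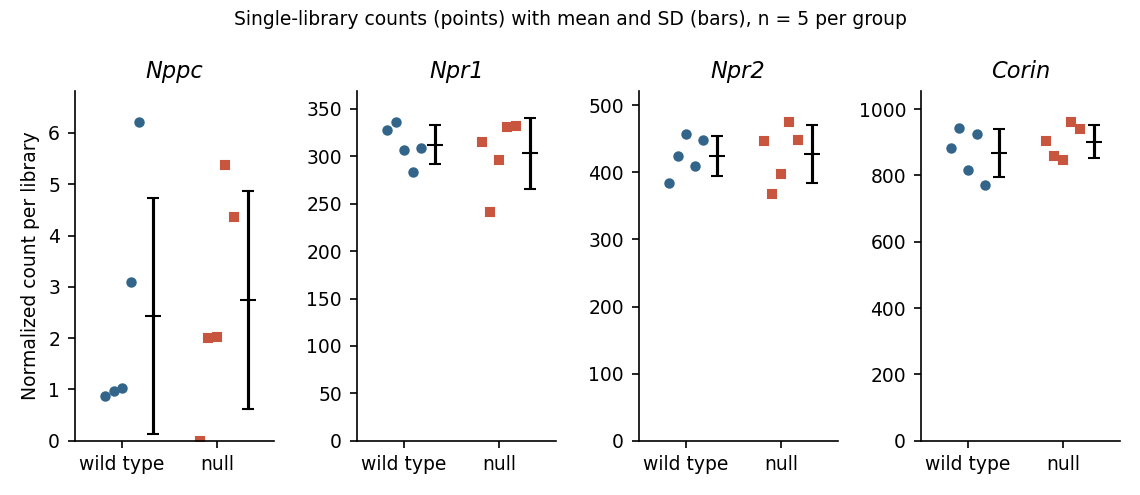
Normalized counts in each library (y axis, from 0) of the 4 genes whose single-library counts were recovered, for 5 wild-type (circles) and 5 *Nos1ap* null hearts (squares), with the mean and SD of each group as a bar. The groups overlap for all 4 genes, and null library 2, second from the left among the null points, is the lowest for *Npr1* and *Npr2*.

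The protease genes are *Corin*, on chromosome 5 at 72300025 to 72504473, and *Furin*, on chromosome 7 at 80388585 to 80405436, both on the minus strand. *Corin* measured 883, 942, 816, 925 and 771 normalized counts in wild-type libraries 1 to 5. It measured 903, 858, 846, 960 and 940 in the null libraries. Wild-type library 5 was the lowest and null library 4 the highest, and the groups overlapped. The means were 867 ± 72.5 and 901 ± 49.8 (SD, n = 5). The log2 difference was 0.06 (SE 0.0539, 95% interval −0.06 to 0.17, adjusted p = 0.998, limma), with an exact two-sided permutation p of 0.405. This interval covers ratios of null to wild type from 0.963 to 1.13. Over the wild-type hearts *Corin* had a CV of 8.36%, wider than that of 94.7% of genes of like level whose counts were also recovered. Over the null hearts its CV was 5.52%, wider than that of 66.3% of such genes. Genes of wide spread tend not to be recovered at this level, so both shares would probably be lower among all genes. *Furin* had a mean of 2614 in wild-type and 2621 in null hearts, a difference of 0.268% (log2 ratio 0.00), and 95.6% of protein-coding genes differed by at least as much. Its difference of 7.0 counts compares with a smallest possible standard error of 55.4.

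In the test across 10316 protein-coding genes (limma, adjusted p under 0.01 and absolute log2 fold change over 1), 0 of the 3 members tested, *Npr1*, *Npr2* and *Corin*, passed. Of all genes tested, 3 passed, 1 higher and 2 lower in null hearts, or 0.0291%. *Nos1ap*, the deleted gene itself, was 1 of the 2 lower. The voom form of limma also called 0 members, and 0 members had an unadjusted p under 0.05, as 3.57% of all genes did. Groups of single libraries did not overlap for 0.785% of all genes tested and for none of these members. In bulk hearts, fewer cells of a type and less RNA per cell cannot be told apart.

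**Figure D4:**
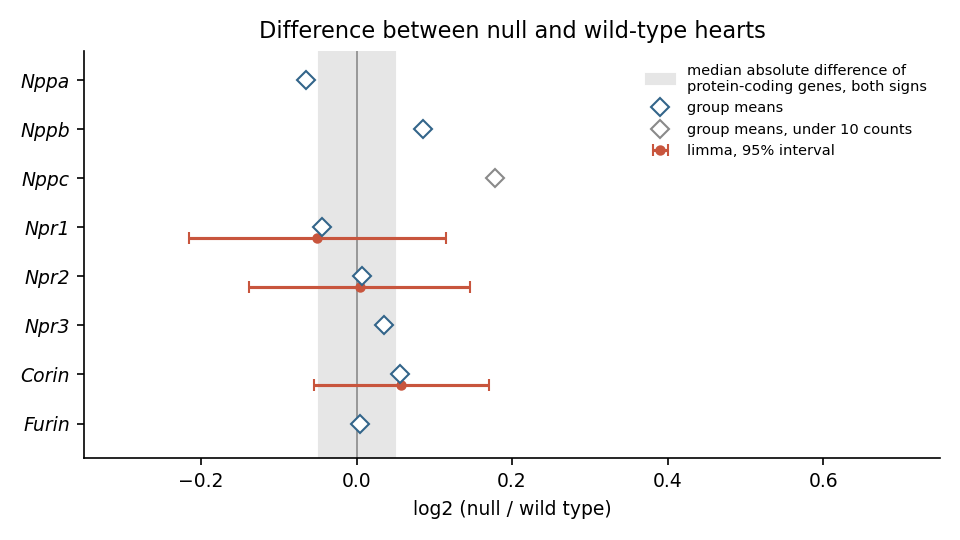
Log2 ratio of null to wild-type hearts (x axis) for the 8 genes, from the group means (open diamonds; grey for *Nppc*, whose mean is under 10 counts) and, for the 3 genes tested, from limma with its 95% interval (filled circles). The grey band spans the median absolute log2 ratio of protein-coding genes, 0.05, in both directions. All 3 intervals include 0. By group means, *Nppa* lies outside the band on the negative side, and *Nppb*, *Corin* and *Nppc* lie outside it on the positive side.

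Over the 10 libraries, *Npr1* and *Npr2* had a Pearson r of 0.62 and a Spearman rho of 0.42 on the log2 scale, *Npr1* and *Corin* 0.35 and 0.61, and *Npr2* and *Corin* 0.11 and 0.14. The points share their libraries and size factors, and the low values of null library 2 enter both cyclase receptors. Of 8404 genes compared, those most like *Npr1* were *Galnt4* (r = 0.95), *Bend6* (0.91) and *Heyl* (0.90), a Notch target gene of vascular smooth muscle. Those most like *Npr2* were *Uvssa* (0.95), *Plat* (0.95), which encodes tissue plasminogen activator, and *Itpr3* (0.93), an intracellular calcium channel. Those most like *Corin* were *Zfp655* (0.93), *Mamld1* (0.91) and *Tspan15* (0.90). These are the highest of many correlations over few libraries, and are given as a description.

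The pathway around the peptides was described by 5 lists. Cyclic GMP made by the receptors acts through protein kinase G and is broken down by phosphodiesterases. Of 17 genes of cyclic GMP signalling, 11 were higher and 6 lower in the null mean, with a median log2 ratio of 0.01, and 0 of the 12 tested passed the thresholds. Not all of the list is downstream of the receptors. It holds the soluble cyclase genes *Gucy1a3* (1698 and 1892, log2 ratio 0.16), *Gucy1b3* (log2 ratio 0.01) and *Gucy1a2*, all counted among the higher. The largest ratios were those of *Gucy1a2*, a subunit of the soluble guanylyl cyclase that answers to nitric oxide (14.9 and 18.5 normalized counts in wild-type and null hearts, log2 ratio 0.31), and of *Mrvi1*, a substrate of protein kinase G (187 and 231, log2 ratio 0.30). *Mrvi1* had an unadjusted p of 0.00261 and an adjusted p of 0.998 in limma. The kinase gene *Prkg1* had means of 90.8 and 99.5, and the cyclic GMP phosphodiesterase gene *Pde5a* had means of 260 and 253, both named for their role.

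Among 8 other genes of peptide processing and breakdown, 4 were higher and 4 lower (median log2 ratio 0.01), and 0 of 6 tested passed. *Ece2*, an endothelin-converting enzyme, had means of 115 and 100.0 (log2 ratio −0.20), and *Dpp4*, a dipeptidyl peptidase, 493 and 540 (log2 ratio 0.13, unadjusted p = 0.0177, adjusted p = 0.998, limma). *Mme*, which encodes neprilysin, the protease that degrades the peptides, had means of 219 and 229 (log2 ratio 0.06).

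Of 20 transcription factors and cofactors of the peptide genes, 12 were higher and 8 lower, with a median log2 ratio of 0.03, and 0 of 9 tested passed. The largest ratios were those of *Zfpm2*, a GATA cofactor (477 and 525, log2 ratio 0.14), and *Hand1*, a factor of the left ventricle (356 and 325, log2 ratio −0.13). *Zfpm2* had an unadjusted p of 0.0427 and an adjusted p of 0.998 in limma. It was 1 of 2 genes of this list with an unadjusted p under 0.05. The other, named after its values were seen, was *Rest* (933 and 993, log2 ratio 0.09, unadjusted p = 0.0311, adjusted p = 0.998, limma). Among factors of the families whose motifs were searched in the promoters above, *Gata4* had 3923 and 4018 normalized counts (log2 ratio 0.03), *Nkx2-5* 1688 and 1648 (−0.03), *Tbx5* 1245 and 1308 (0.07), and *Tead1* 3168 and 3244 (0.03). Others of these families were *Gata6* with 2318 and 2412 (0.06), *Tbx20* with 5824 and 6255 (0.10), *Tbx2* with 276 and 260 (−0.09) and *Tbx3* with 292 and 282 (−0.05). Of these 8, *Tbx2* and *Tbx3* were tested, and neither passed.

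The myocardium that expresses *Nppa* was followed by 13 chamber and trabecular genes, of which 8 were higher and 5 lower (median log2 ratio 0.04). The largest ratios were those of *Sln*, the atrial regulator sarcolipin (77.2 and 97.8, log2 ratio 0.34), and *Myh6*, a myosin heavy chain (61175 and 64570, log2 ratio 0.08). *Sln* was the only gene of this list that could be tested, with an unadjusted p of 0.0276 and an adjusted p of 0.998 in limma. All 5 atrial markers, *Sln*, *Myl7*, *Nr2f1*, *Nr2f2* and *Stard10*, were higher in the null mean, and their sum was 12553 in wild-type and 13138 in null hearts. *Nppa*, also an atrial product, was lower in the null mean. The 5 ventricular markers summed to 51307 and 50805, with 3 higher and 2 lower. Endocardial and endothelial markers were split 4 and 4 (median log2 ratio 0.00), and 5 of 6 epicardial markers were higher in the null mean (0.07). Smooth muscle markers were lower for 4 of 4 genes (median −0.06), and mesenchymal and cushion markers for 5 of 6 (−0.07). Whether the amount of atrial tissue moved with the ligand genes was not tested. Among 12 genes listed for wall stress and the fetal programme, 9 were higher and 3 lower (median log2 ratio 0.03), and 0 of 3 tested passed. This count takes no account of the way each gene moves in a loaded heart. *Xirp2*, of the intercalated disc, had means of 23.2 and 27.1 (log2 ratio 0.23), and the immediate early gene *Egr1* had 330 and 370 (log2 ratio 0.16). Over all protein-coding genes with a mean of at least 10, 49.5% were higher in the null mean, and their median log2 ratio was −0.00093.

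**Figure D5:**
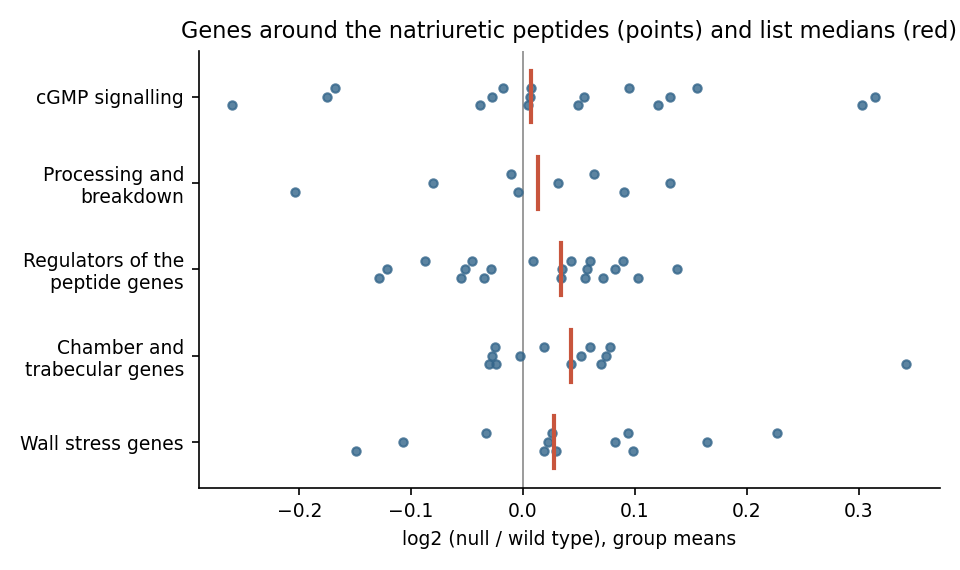
Log2 ratio of null to wild-type group means (x axis) for each gene of the 5 lists around the natriuretic peptides (points), with the list median (red line). The medians of these lists lie between 0.01 and 0.04, and each list has genes on both sides of 0.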

How the data were processed

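PolyA RNA of 10 hearts was sequenced in pairs. The authors trimmed reads with Trimmomatic 0.36, counted them by gene with RSEM 1.2.31 and STAR (GRCm38, GENCODE M10, strand used) and normalized them with DESeq 1.24.0. The deposited signal values are normalized read counts averaged by the authors over the 5 libraries of a group, with 15 significant digits. Fold changes and p-values of the authors' own comparison stand beside them and were not used.

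Single-library counts were recovered from 2 columns of means by a lattice search in Python 3.11.15 with numpy 2.4.6. For means under 1000, a set of counts was kept if chance would give no more than 0.01 further sets at its distance, which settled 98.9% of such means in wild-type and 99.1% in null hearts. Genes with very uneven counts over a group tend to drop out at this step. Size factors computed anew from the recovered counts differed by at most 0.835% from those read from the means. The recovery of counts and the limma fit described below were each run on simulated data, and the outcome is not given here. The unit of the table is not a deposited count, so no count model was fitted.

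limma 3.58.1 (R 4.3.3) was run over the 10316 protein-coding genes, of 13299 whose mean reached 10, that had recovered counts in both groups (and so means under 1000), on log2(normalized count + 1), with trended and robust moderation and Benjamini-Hochberg adjustment. A fold change on this scale understates that of low genes. Named genes are the members, *Nos1ap*, the 3 genes most like each member, and the 2 largest ratios of each list, beside genes said to be named for their role or after their values were seen. Lengths and positions come from GENCODE M21. Members and lists were chosen with earlier results of these data known.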

Additional observations from a re-analysis of the deposited data

How the results depend on the processing

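The number of members called was 0 under every alternative that was run, including a pseudocount of 0.5, no filter on low values, a mean of at least 50, genes of every type, voom, upper quartile scaling, an adjusted p under 0.05 with no fold threshold, stricter acceptance of counts (0.001, which leaves 2 members to test, since *Corin* drops out) and each library left out in turn. Among all genes tested, 2 to 3 were called when 1 library was left out. In the fits with only 2 calls, 0 were higher and 2 lower in null hearts, so that the gene called higher was lost. Of 107 recomputed values, 6 changed sign, all by leaving out 1 library. The other 101 include counts of calls, the order of levels and permutation p-values, which have no sign. Leaving out 1 library, the log2 difference ran from −0.086 to 0.029 for *Npr1* (sign changed in 1 of 10), from −0.036 to 0.056 for *Npr2* (5 of 10) and from 0.016 to 0.088 for *Corin* (0 of 10). Shifting the median gene to 0 moved every log2 ratio by 0.0015 and changed no sign. No paired analysis was possible because the group means carry no replicate number, so the replicate block was not run, nor could a library be left out for *Nppa*, *Nppb*, *Npr3* and *Furin*. The smallest possible spread, and the spread without each library, were added after the data were seen. Depth limits *Nppc*, which had 12 and 13 read pairs in wild-type and null hearts, and the size of the means limits what is known of *Nppa*, *Nppb*, *Npr3* and *Furin*.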
